A study of Caenorhabditis elegans with 2 samples.

Results

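Genes for the vacuolar proton pump and for endolysosomal sorting were examined for binding of the homeobox protein CEH-82, encoded by ceh-82 (F45C12.2), in Caenorhabditis elegans. They were chosen by name: every protein-coding gene whose symbol begins with vha, vps or snx followed by a hyphen and a digit in the Ensembl annotation of the WBcel235 assembly. The rule found 58 genes of 19973 protein-coding genes on the nuclear chromosomes, with 20 vha, 31 vps and 7 snx symbols. Binding was mapped by chromatin immunoprecipitation and sequencing (ChIP-seq) in 2 biological replicates, which formed 1 group. Both replicates were whole first-stage (L1) larvae of strain OP212, genotype unc-119(ed3) III; ddEx58, pooled from males and females, with no treatment named. The strain carried CEH-82 with GFP-FLAG at its C-terminus. The symbol ddEx58 has the form used for an extrachromosomal array while the labels speak of an insertion, so the copy that carried the tag is unclear. The sources do not name the promoter of the tagged gene. The antibody is unclear as well, since its label reads ceh-82 and does not mention GFP or FLAG. ChIP of a strain without the tag was not analysed here.

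The V-ATPase pumps protons into lysosomes, endosomes and other compartments, and in the worm also across some outer cell membranes. Its cytosolic V1 sector hydrolyses ATP and its membrane V0 sector carries the protons. Cargo reaches the lysosome through the ESCRT complexes, which sort tagged membrane proteins into vesicles inside endosomes, and through CORVET and HOPS, which tether endosomes and lysosomes before they fuse. Retromer and its sorting nexins return receptors from endosomes to the Golgi or the cell surface.

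Each peak in the deposited lists had a summit and a signal, a value set by the authors in a unit that no label explains, used here to describe and rank peaks within a list. The optimal list, derived by the authors from both replicates, held 2346 peaks with a median signal of 55.4 (range 30.9 to 619), and rank 1 is its strongest peak. A relaxed list of the pooled data held 20459 peaks and each replicate's relaxed list held 30000. A gene was called bound when an optimal summit lay within 500 bp of its annotated start on either side, and distances are negative upstream of the start. With 1 group and no untagged strain there was no comparison between samples to test, so counts are set beside the same counts over all genes. CEH-82 was bound at 17 of the 58 genes (29.3%), against 8.18% of all protein-coding genes (1633 of 19973). The bound genes comprised 6 of 20 V-ATPase genes (30%) and 11 of 38 sorting genes (28.9%). Among the sorting complexes, 6 of 11 ESCRT genes were bound (54.5%), 1 of 8 HOPS/CORVET genes (12.5%) and 0 of 3 retromer core genes. Without replicate 2, using the strongest 2346 peaks of replicate 1 alone, 11 of the 58 were bound, against 8.06% of all genes. They were the same 6 V-ATPase genes and 5 sorting genes, of which 3 were ESCRT genes and none HOPS/CORVET genes.

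The DNA under these peaks is shown for 8 bound genes, as the summit base with 50 bases on either side. V1 and ESCRT genes make up most of the set, beside a V0, a sorting nexin and a HOPS/CORVET gene. Sequences are from the RefSeq WBcel235 genome (ce11), written 5′ to 3′ on the strand of the gene. Capitals mark AGACGCA or its reverse complement TGCGTCT, a run of letters picked after these windows had been read. The set shows all 6 windows with it among the 17 bound genes and only 2 of those without it. Its share here is therefore higher than among all bound genes. The window of vps-4, which has the strongest peak of the 17, holds no copy and is not shown.
vha-12 (chrX:4190696-4190796, plus strand): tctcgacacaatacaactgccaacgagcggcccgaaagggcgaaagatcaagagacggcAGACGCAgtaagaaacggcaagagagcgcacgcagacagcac
vha-15 (chrX:2237576-2237676, plus strand): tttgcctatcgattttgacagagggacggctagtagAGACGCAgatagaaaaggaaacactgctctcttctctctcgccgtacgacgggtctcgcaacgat
vha-8 (chrIV:6790563-6790663, plus strand): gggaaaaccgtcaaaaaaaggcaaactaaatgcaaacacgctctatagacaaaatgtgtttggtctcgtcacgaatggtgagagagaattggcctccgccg
vha-1 (chrIII:9780763-9780863, plus strand): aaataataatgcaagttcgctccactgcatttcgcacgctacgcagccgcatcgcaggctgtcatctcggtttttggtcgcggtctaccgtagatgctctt
vps-37 (chrV:5592480-5592580, plus strand): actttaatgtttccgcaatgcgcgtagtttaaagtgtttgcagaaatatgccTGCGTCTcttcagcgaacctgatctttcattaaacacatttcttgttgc
vps-60 (chrV:8606422-8606522, minus strand): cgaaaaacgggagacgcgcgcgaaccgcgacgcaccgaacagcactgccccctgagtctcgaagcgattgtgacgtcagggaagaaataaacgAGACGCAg
snx-13 (chrIV:17087583-17087683, minus strand): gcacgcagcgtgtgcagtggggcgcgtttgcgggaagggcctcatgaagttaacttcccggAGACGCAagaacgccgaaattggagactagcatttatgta
vps-33.2 (chrII:6601112-6601212, plus strand): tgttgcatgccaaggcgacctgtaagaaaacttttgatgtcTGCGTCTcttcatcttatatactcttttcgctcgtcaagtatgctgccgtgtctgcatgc

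In the 6 windows with capitals the place of the first capital differed, from 14 bases before the summit in vha-15 to 43 bases after it in vps-60. The windows of vha-8 and vha-1 hold no copy.

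Within the V1 sector, 4 of 9 genes were bound. The strongest V-ATPase peak stood upstream of vha-12, which encodes subunit B, the partner of the catalytic subunit in the ATP-hydrolysing ring. Its summit lay at −348 bp with a signal of 165, rank 152 of the optimal list. In the replicate lists the same peak had signals of 71.1 (replicate 1, rank 171) and 90.0 (replicate 2, rank 163), so it stood near the top of both. Subunit E, a stalk subunit encoded by vha-8, had a summit at −461 bp with a signal of 110 (rank 389). Its replicate signals were 51.5 and 59.8, at ranks 381 and 403. That summit was nearer to the start of another gene, C17H12.2, at −125 bp. Upstream of vha-15, which encodes subunit H, a regulator of the holoenzyme, the summit lay at −285 bp with a signal of 105 (rank 433). Replicate signals there were 51.6 and 51.1, at ranks 380 and 532, and both replicates placed the summit at −285 bp. The stalk subunit F gene vha-9 had the lowest V1 signal among bound genes, 66.9 at −239 bp (rank 925). Its replicates gave 28.9 and 39.2, at ranks 979 and 843.

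The catalytic subunit A gene, vha-13, fell just outside the limit. Its nearest optimal summit stood at −540 bp, inside an exon of the upstream gene cept-2, with a signal of 64.0 (rank 971) and replicate signals of 23.5 and 36.7. In the pooled relaxed list vha-13 also had a weak summit at −7 bp with a signal of 12.8. Weak relaxed summits were likewise listed at vha-14 (subunit D), at −109 bp with a signal of 13.2, and at vha-10 (subunit G), at −424 bp with a signal of 13.3. The subunit C gene vha-11 and the second subunit H gene vha-18 had no pooled summit within 500 bp. Of the pair of subunit H genes, then, vha-15 was bound, while the nearest optimal summit to vha-18 was at −15330 bp.

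In the V0 sector, 2 of 9 genes were bound. The vha-1 gene, which encodes a proteolipid of the rotating membrane ring, had a summit at −441 bp with a signal of 85.7 (rank 606). Replicate 1 gave a signal of 31.4 (rank 856) and replicate 2 gave 55.8 (rank 460). The neighbour sqv-3 had its start at nearly the same distance, with the summit at −459 bp from it. The subunit d gene vha-16, which joins the ring to the stalk, had a summit at −179 bp with a signal of 43.9 (rank 1587). Its replicate signals of 16.7 and 26.5 had ranks 2023 and 1435, the lowest of the 6 bound V-ATPase genes. Other ring genes were below the optimal list at their starts. For vha-3 a relaxed summit stood at −68 bp with a signal of 20.4, at rank 2348 in replicate 1, and no replicate 2 summit lay within 500 bp. At vha-2 a relaxed summit stood at 271 bp with a signal of 13.7. The ring gene vha-4 had none within 500 bp in the pooled list.

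None of the 3 vha genes for subunit a, the large membrane subunit that forms the proton path, was bound. For vha-6, which is known for its role at the luminal membrane of the intestine, the nearest optimal summit was at −1927 bp with a signal of 32.19 (rank 2264). Replicate 2 alone listed a summit nearer to vha-6, at −151 bp with a signal of 11.6 (rank 4858). No pooled or replicate 1 summit lay within 500 bp of vha-6. The distance to the nearest optimal summit was −50958 bp for vha-5 and 11350 bp for vha-7. Subunit e (vha-17) had a relaxed summit at −503 bp with a signal of 23.7, and its nearest optimal summit was 64425 bp from the start. Of the accessory genes, vha-19 had a relaxed summit at −235 bp with a signal of 18.8, which ranked 2667 in replicate 2, while no replicate 1 summit stood within 500 bp. No pooled summit within 500 bp was listed for vha-20.

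Of 11 ESCRT genes, 6 were bound (54.5%). Without replicate 1 the count stayed at 6 of 11, where 7.86% of all genes were bound. Without replicate 2 it was 3 of 11 (27.3%), where 8.06% of all genes were bound. The V1 sector stayed at 4 of 9 (44.4%) both times, so its order beside ESCRT depended on the replicate left out. The top peak among all 17 bound genes stood upstream of vps-4, which encodes the ATPase that takes ESCRT-III filaments apart. Its summit lay at −265 bp with a signal of 166 (rank 150), and the replicate signals were 77.2 and 86.6 at ranks 141 and 171. In ESCRT-I, vps-37 had a summit at −170 bp with a signal of 121 (rank 320), and vps-28 had one at −90 bp with a signal of 34.5 (rank 2100). Both are subunits of the same complex, and both were on the optimal list at different strengths. The replicates gave vps-37 signals of 55.3 and 66.1, at rank 327 in each list. For vps-28 they gave 14.9 and 18.6, at ranks 2357 and 2206. Of the 3 ESCRT-II genes only vps-25 was bound, with a summit at −17 bp and a signal of 44.6 (rank 1562). Its peak rested on 1 replicate: replicate 2 had a signal of 49.0 (rank 567), whereas no replicate 1 peak overlapped it and the nearest replicate 1 summit was at −339 bp with rank 19092. The same summit was at −296 bp from the start of uba-2.

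ESCRT-III builds the filaments that cut vesicles from the endosome membrane. Here vps-60 was bound at −344 bp with a signal of 108 (rank 414), and its replicates gave 46.6 and 61.8 at ranks 461 and 368. The vps-2 gene had a summit at −236 bp with a signal of 40.99 (rank 1720). Its replicates stood apart, with a signal of 10.8 (rank 4255) in replicate 1 and 25.3 (rank 1536) in replicate 2. The tiar-2 start was at a like distance, the summit lying at −233 bp from it. Weak relaxed summits were listed at vps-24, at 29 bp with a signal of 14.8, and at vps-20, at 105 bp with a signal of 12.03. A pair of ESCRT genes fell just outside the 500 bp limit beside strong peaks. For vps-32.1 the summit lay at −597 bp with a signal of 185 (rank 116), higher than at any bound vha, vps or snx gene. Its replicate signals were 108 and 78.4. That summit was nearer to icd-1, at −456 bp. For the ESCRT-II gene vps-22 it lay at −629 bp with a signal of 129 (rank 269) and replicate signals of 58.4 and 73.7, and at −78 bp from the overlapping gene C27F2.9. The remaining ESCRT-II gene, vps-36, had its nearest optimal summit at −5030 bp.

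HOPS/CORVET genes were bound in 1 case of 8. The gene was vps-33.2, one of a pair of genes for the SNARE-binding subunit, with a summit at −54 bp and a signal of 33.06 (rank 2200). Its replicate signals were 14.5 and 16.8, at ranks 2445 and 2509, so it stood outside the strongest 2346 peaks of either replicate, and the summit lay inside an intron of epg-5. The other gene of the pair, vps-33.1, had the strongest relaxed summit of the unbound HOPS/CORVET genes, at −201 bp with a signal of 19.6. At vps-16, a core subunit, a relaxed summit stood at 173 bp with a signal of 12.3. The other core genes vps-11 and vps-18, the HOPS genes vps-39 and vps-41 and the CORVET gene vps-8 had no pooled summit within 500 bp.

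The retromer core genes, whose products form the cargo-binding trimer, had no optimal summit near their starts. The nearest was at −44436 bp for vps-26, at −10770 bp for vps-29 and at 59013 bp for vps-35. In the relaxed list vps-26 had a summit at −211 bp with a signal of 16.7 and vps-35 had one at −299 bp with a signal of 12.8. Of 4 nexins known as retromer partners, snx-1 was bound, at −240 bp with a signal of 33.0 (rank 2211). Its replicate signals were 12.4 and 21.1, at ranks 3169 and 1884. For snx-6, a partner of snx-1 in tubule formation, the nearest optimal summit lay at −1836 bp with a signal of 68.1. The adaptor nexin snx-27 had a relaxed summit at 80 bp with a signal of 11.5, and snx-3 had none within 500 bp.

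Outside these complexes, snx-13, a nexin with an RGS-type domain in its mammalian counterpart, was bound at −195 bp with a signal of 102 (rank 460). Replicates gave 45.7 and 54.8, at ranks 478 and 472, and the same summit stood at −416 bp from snr-1, a small nuclear ribonucleoprotein gene. A relaxed summit at snx-14 stood at 253 bp with a signal of 11.3. The optimal summit nearest to snx-17 lay in an intron of the gene, at 930 bp with a signal of 43.5, with a tRNA gene within 100 bp. Among the GARP/EARP tethering genes, vps-51, a subunit shared by both complexes, was bound at −228 bp with a signal of 88.0 (rank 573). Replicate 1 gave 25.4 (rank 1186) and replicate 2 gave 54.7 (rank 473), and lin-35, the worm Retinoblastoma gene, was the nearer start at −190 bp. Of its partners, vps-53 had the strongest relaxed summit, at 181 bp with a signal of 19.4. The EARP gene vps-50 had one at 7 bp with a signal of 12.1 and vps-52 had one at −117 bp with a signal of 11.8, while vps-54, the GARP gene, had none within 500 bp. The SNARE regulator vps-45 was bound at −35 bp with a signal of 35.04 (rank 2065), and its replicates gave 12.3 and 19.9 at ranks 3183 and 2022. Neither gene of the endosomal PI3-kinase was bound, with a relaxed summit at −454 bp (signal 17.3) for the regulatory subunit gene vps-15 and none within 500 bp for the catalytic gene vps-34. The lipid transfer gene vps-13 had a relaxed summit at −51 bp with a signal of 11.5.

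**Figure D1:**
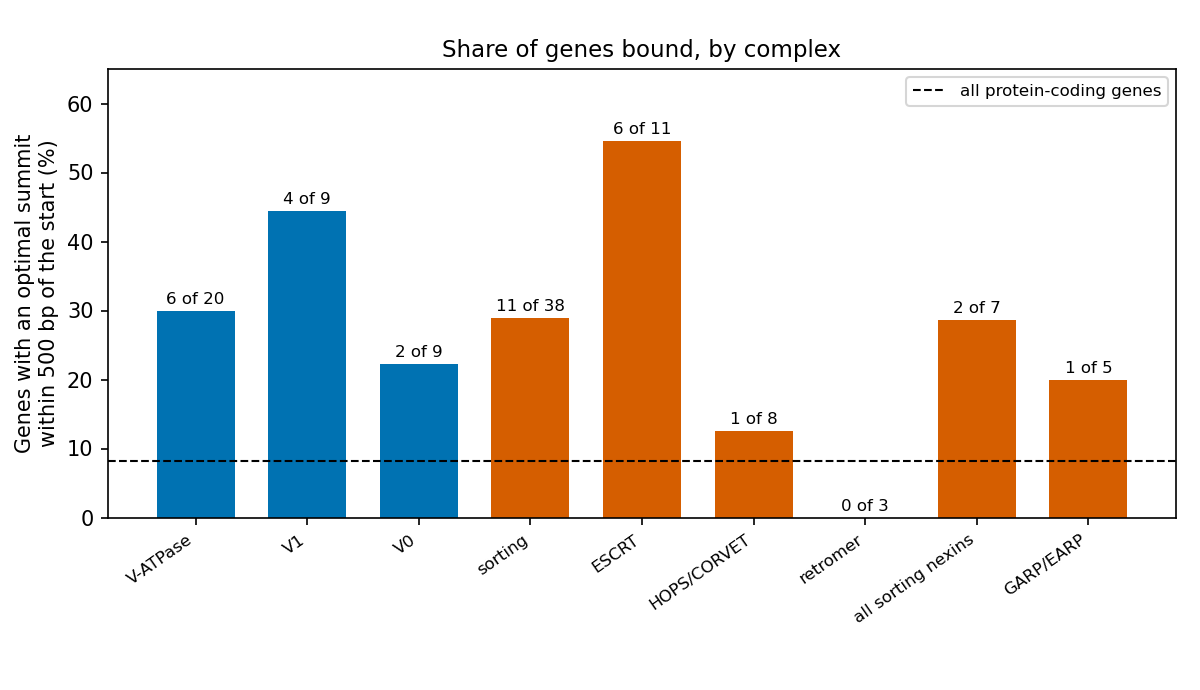
Share of genes with an optimal summit within 500 bp of the start, in percent, for V-ATPase genes and their sectors (blue) and for sorting genes and their complexes (orange), with the count above each bar. The dashed line is the share of all protein-coding genes, 8.18%. ESCRT stands at 54.5% and retromer at 0 of 3.

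V-ATPase and sorting genes were bound at nearly the same share over the whole optimal list, 30% and 28.9%. That likeness depended on the setting: without replicate 2 the shares were 30% and 13.2%, and within 250 bp they were 10% and 23.7%. The median signal was 95.5 for the 6 V-ATPase genes (43.9 to 165) and 44.6 for the 11 sorting genes (33.0 to 166), with 63.1 over all bound genes. The V-ATPase range lay inside that of the sorting genes, and no test was made between the classes. Among the strongest 1173 peaks of the optimal list were 5 of 6 V-ATPase peaks and 5 of 11 sorting peaks, or 25% and 13.2% of the genes of each class, where 4.70% of all genes were called. The median position was −316.5 bp for V-ATPase genes (−461 to −179), −195 bp for sorting genes (−344 to −17) and −177 bp over all bound genes. V-ATPase summits therefore lay farther upstream in the median. The farthest, at vha-8 (−461 bp) and vha-1 (−441 bp), also lay within 500 bp of another start. So did those of snx-13, vps-51, vps-25 and vps-2 among the sorting genes. All 17 summits were upstream of the start, as were 1501 of 1633 among all bound genes. Within 250 bp, where 5.33% of all genes had an optimal summit, there were 2 V-ATPase and 9 sorting genes. Within 1000 bp, where 10.3% of all genes had one, there were 7 and 14. The median distance to the nearest optimal summit, in either direction, was 2179.5 bp for V-ATPase genes and 5258 bp for sorting genes, with 344 bp for ESCRT, 7960 bp for HOPS/CORVET, 44436 bp for retromer and 16198 bp over all genes.

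**Figure D2:**
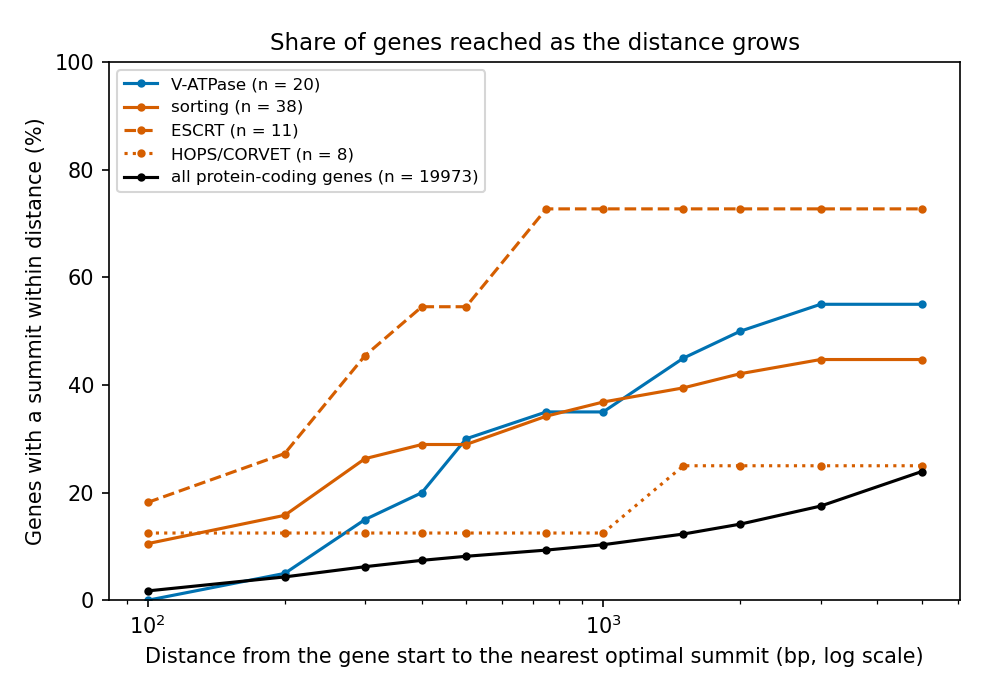
Percentage of genes with an optimal summit within a given distance of the start (bp, log scale), for V-ATPase, sorting, ESCRT, HOPS/CORVET and all protein-coding genes. Between 100 and 500 bp the V-ATPase line rises from 0% to 30%, and the ESCRT line reaches 54.5% by 400 bp.

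The pooled relaxed list reached further. A relaxed summit lay within 500 bp of the start at 36 of 58 genes (62.1%), against 27.4% of all genes. The counts were 12 of 20 for V-ATPase genes and 24 of 38 for sorting genes, close to one another in share (60% and 63.2%). ESCRT genes had one in 8 of 11 cases, HOPS/CORVET genes in 3 of 8 and retromer genes in 2 of 3.

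The replicates ranked most bound peaks alike, with vps-25 and vps-2 as the widest gaps. For 16 of the 17 bound genes a peak of each replicate overlapped the optimal peak, and vps-25 lacked one in replicate 1. Over those 16, Spearman's correlation between replicate ranks was 0.888, as a description of peaks that both replicates helped to select. All 6 V-ATPase peaks were among the strongest 2346 of both replicates. Of the 11 sorting peaks, 5 were: vps-4, vps-37, vps-60, snx-13 and vps-51. The other 6 missed in replicate 1, and vps-33.2 in both. Over the whole optimal list 75.1% of peaks were among the strongest of both, and counting those peaks alone called 11 of the 58 genes and 6.56% of all genes. With the strongest peaks of replicate 2 alone, where 7.86% of all genes were called, 16 of the 58 genes were bound.

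**Figure D3:**
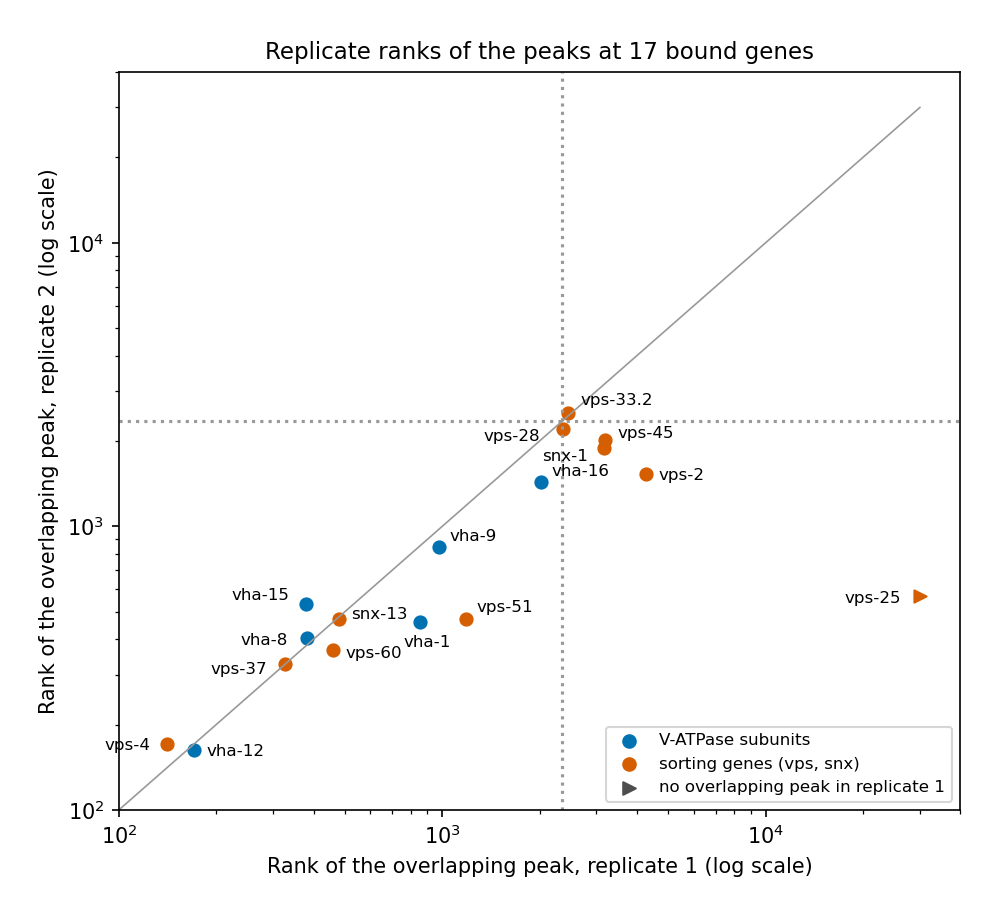
Rank of the overlapping peak in replicate 1 (x axis) and replicate 2 (y axis) for the 17 bound genes, both on log scales, where rank 1 is the strongest; dotted lines mark rank 2346 and the diagonal marks equal ranks. V-ATPase genes are blue and all lie inside both dotted lines, and vps-25, drawn as a triangle at rank 30000, had no overlapping peak in replicate 1.

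Many worm genes lie in operons, where one promoter serves several genes in a row, so the start of a downstream gene need not be where its transcription begins. No operon annotation was used here. As a stand-in, genes on the same strand with gaps of at most 500 bp were joined into runs, which may or may not be operons. By that rule 17 of the 58 genes were downstream in a run (29.3%), against 20.9% of all genes. Among the first or lone genes 15 of 41 were bound (36.6%), and among the downstream genes 2 of 17 (11.8%). Over all genes the shares were 9.005% and 5.04%. All 3 retromer genes and 4 of 8 HOPS/CORVET genes were downstream. The gap to the gene before was 173 bp for vps-26, 88 bp for vps-29 and 190 bp for vps-35, and none of their runs began at a bound start.

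When the start of the first gene of the run was used instead, 22 of the 58 genes were bound, where 11.0% of all genes were. V-ATPase genes then numbered 8 of 20 and HOPS/CORVET genes 3 of 8. ESCRT genes stayed at 6 of 11, with vps-22 gained and vps-28 lost. The catalytic subunit gene vha-13 follows cept-2, whose start had a summit at −335 bp with a signal of 172 (rank 138), the strongest at any V-ATPase run. The ring gene vha-2 follows vha-1 by 400 bp, and their run begins at the vha-1 peak. The accessory gene vha-20 follows sym-4, which had a summit at −227 bp with a signal of 94.6. Among tethering genes, the run of vps-11 begins with npp-19, a nuclear pore gene, whose summit stood at −190 bp with a signal of 78.8. The run of vps-16 begins with txdc-9, with a summit at −249 bp and a signal of 50.7. The run of the GARP gene vps-54 begins with erh-1, with a summit at 12 bp and a signal of 112. The run of the ESCRT-II gene vps-22 begins with C27F2.9, with a summit at −78 bp and a signal of 129. The reverse was seen at vha-9 and vps-28, which had a peak at their own start behind gcy-4 and eipr-1, in runs whose first start was not bound.

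The 17 bound genes were reached by 17 distinct peaks. Another protein-coding start lay within 500 bp of the summit for 6 of them (35.3%), against 47.9% of all bound genes. Those 6 were vha-8, vha-1, snx-13, vps-51, vps-25 and vps-2, and a peak near several starts cannot be assigned to one of them. The gene itself was the nearest start in 14 of 17 cases, the exceptions being vha-8, vps-51 and vps-2. When each summit was given to its nearest start alone, 14 of the 58 genes were bound, where 6.20% of all genes were. Apart from the summit of vps-33.2, the bound summits lay outside protein-coding genes. No tRNA, snoRNA or snRNA gene stood within 100 bp of any of them. Optimal summits inside the body of a gene were found at 3 of the 58 genes, and at 2.69% of all protein-coding genes. In vps-4 a second summit lay 4736 bp into the gene with a signal of 89.6, in addition to its peak at −265 bp. In vps-25 a summit 4467 bp into the gene had a signal of 120, above the 44.6 at its start. In snx-17 the summit at 930 bp lay beside a tRNA gene.

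The same windows, 50 bases either side of the summit, of all 17 bound genes were searched on both strands for short motifs, as a description of letters and not of sites. CACGTG, the core of the E-box to which the lysosomal regulator HLH-30 (TFEB in mammals) binds, was in 0 of 17 windows, and in 3.28% of all optimal windows. TAATTA, a core of many homeodomain sites, was also in 0 of 17, and in 1.02% of optimal windows. Of the GATA motifs, TGATAA was in 1 window (vps-2) and AGATAA in none, against 1.88% and 2.77%. With optimal shares this low, 17 windows are too few for the counts of these 4 motifs to decide anything. GAGAGA was in 4 of 17 windows, those of vha-8, vha-15, vha-16 and vps-45, a share near the 30.3% of optimal windows that hold it. AGACGCA, which was picked from these windows, was in 6 of 17, against 15.1% of optimal windows and 2.16% of windows of relaxed peaks outside the optimal list. In those relaxed windows the shares of GAGAGA (9.61%) and CACGTG (2.07%) were also lower than in optimal windows. Those of TGATAA (8.72%), AGATAA (5.90%) and TAATTA (4.20%) were higher. GAGAGA and AGACGCA can share letters where they overlap. Because the latter was chosen on 12 of the windows, that count supports nothing by itself. The 5 bound windows that had not been read held none. With 15.1% of optimal windows holding it, 5 windows are too few for that to decide anything. In the 500 bases upstream of the start, AGACGCA was in 8 of 58 genes, beside 7.14% of all genes; 6 of the 8 are the genes whose windows chose it, and the others are vha-19 and vps-15. GAGAGA was there in 27 of 58 genes (46.6%), above the 29.98% of all genes. TGATAA was there in 27 of 58 as well, near the 43.7% of all genes. AGATAA was upstream of 29.3% of the 58 genes, beside 31.5% of all genes. For TAATTA the shares were 32.8% and 26.5%. CACGTG was found upstream in 3 genes, vha-3, vha-4 and vps-26, of which none was bound, beside 8.61% of all genes. The median G and C content of the 17 windows was 50.5% (32.7% to 59.4%), and that of all optimal windows was 48.5%.

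Genes of the same pathway that carry other names were read from a list of 53 symbols, and 13 of them were bound (24.5%), again against 8.18% of all genes. Around the V-ATPase, the assembly factor gene rbc-2 had the strongest peak of the list, at −130 bp with a signal of 225, while the other assembly gene, rbc-1, was not bound (−788 bp, signal 39.4). Of a pair of subunit paralogs outside the name rule, unc-32, a further subunit a gene known from neurons, had a summit at −180 bp with a signal of 40.4, and spe-5 had its nearest at −2734 bp. Subunit a was thus reached at unc-32 and at none of vha-5, vha-6 and vha-7. Of 7 ESCRT genes outside the name rule, 1 was bound, istr-1, at −142 bp with a signal of 36.5, whereas tsg-101, hgrs-1, stam-1, mvb-12, alx-1 and did-2 were not. Together with the 6 of 11 above, the ESCRT count therefore depended on which names were taken.

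Endosome maturation genes were bound in 3 of 10 cases. They were ccz-1, part of the Rab7 activator (−139 bp, signal 148), ppk-3, the kinase that makes the late endosomal phosphoinositide (−176 bp, signal 98.02), and epg-8, an autophagy partner of the PI3-kinase (−228 bp, signal 69.2). Of 5 further sorting genes, spe-39, which works with HOPS, was bound at −160 bp with a signal of 68.4, and rme-1, rme-8, sorf-1 and sorf-2 were not. Of 7 genes for lysosome-related organelles, the AP-3 adaptor genes aps-3 (−146 bp, signal 54.7) and apm-3 (−90 bp, signal 34.03) were bound. Lysosomal signalling genes were bound in 3 of 7 cases, with weak peaks at ragc-1 (−209 bp, signal 40.5), hlh-30 (−126 bp, signal 39.5) and lmtr-3 (−62 bp, signal 36.2). Genes for proteins of the lysosome itself, such as cathepsins and membrane proteins, were bound in 1 of 13 cases, at the channel gene cup-5 (271 bp, signal 36.6). That share lay near the background of all genes.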

How the data were processed

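Peak lists of 2 ChIP-seq replicates were analysed on ce11. Per the deposited file descriptions, relaxed lists of each replicate and of the pooled data were made against a control, and the optimal list was derived from them with the irreproducible discovery rate (IDR). Per the file columns the authors deposited, each peak has a signal value (column 7, scale not defined), a score that reaches a ceiling and was not used to rank, and a summit offset. The aligner, peak caller and IDR threshold are not given in the sources used here, and the read depth is unknown. No column of another series was used. Nothing in the labels says how the replicates were grown.

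Summits were assigned to starts of Ensembl release 115 gene records (WBcel235, the ce11 assembly) with Python 3.11.15, pandas 2.3.3 and NumPy 2.4.6. Nearest distances were checked on 200 planted starts, and 200 equalled an exhaustive search. Replicate alternatives used the strongest 2346 peaks of one replicate. The genes and lists were chosen with earlier results of these data known. All V-ATPase genes, bound sorting genes, those with a summit from 500 to 1000 bp, and the strongest relaxed summit in each sorting complex were described. Symbol vps-32.2 was not matched.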

Additional observations from a re-analysis of the deposited data

How the results depend on the processing

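Of 12 alternatives, those that read transcript starts or the upstream side alone, or left out summits near tRNA, snoRNA or snRNA genes, changed no call among the 58 genes. The main setting called 17 genes and 8.18% of all genes. The bound count of 17 became 11 within 250 bp (V-ATPase 6 to 2), where 5.33% of all genes were called. It became 10 with the strongest 1173 optimal peaks alone, which called 4.70% of all genes (sorting 11 to 5, ESCRT 6 to 3, HOPS/CORVET 1 to 0). With the pooled relaxed list it became 36 (V-ATPase 12, sorting 24, HOPS/CORVET 3, retromer 2), but that list called 27.4% of all genes. From run starts HOPS/CORVET rose from 1 to 3, where 11.0% of all genes were called. Leaving out 1 replicate gave 11 to 16 bound genes, with V-ATPase at 6 each time, sorting 5 to 10, ESCRT 3 to 6 and HOPS/CORVET 0. Of all genes, 8.06% were called without replicate 2 and 7.86% without replicate 1. The median distance to the nearest summit, 5103 bp, ran from 5255.5 to 7086.5 bp. Peaks among the strongest of both replicates left 11 genes, against 6.56% of all genes (sorting 5, ESCRT 3, HOPS/CORVET 0); this setting and the one on tRNA, snoRNA and snRNA genes were chosen after seeing the data. The causes of these changes were not tested beyond the narrower or wider limits themselves. Calls at snx-13 and vps-37 were kept in all 12 alternatives. Ranking by the deposited score was not run, because 2119 of 2346 optimal peaks (90.3%) share the highest score. No paired analysis was possible because there was 1 group only. Without read depth, a gene outside the optimal list is not shown to lack binding.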

Other observations

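By chromosome, 5 of 11 genes on I, 3 of 12 on II, 1 of 9 on III, 2 of 10 on IV, 2 of 8 on V and 4 of 8 on X were bound. Over all protein-coding genes the bound shares were 11.7%, 7.86%, 12.4%, 8.14%, 5.49% and 5.71% in the same order. The 4 genes on X were vha-12, vha-15, vps-45 and snx-1. No test was made of these counts.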
